A study of Mus musculus with 2 samples.

Results

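The genes described are the long noncoding RNA (lncRNA) genes read in mouse gastrocnemius, the large calf muscle. They were chosen by annotation and by reads: a gene qualified when its gene line carried the type lincRNA, antisense, processed_transcript, bidirectional_promoter_lncRNA, sense_intronic, sense_overlapping or macro_lncRNA and it had at least 10 reads in the sum of both libraries. The imprinted genes H19, Meg3, Rian and Mirg were left out. Of 10148 lncRNA genes of these types in the annotation, 1556 had a read and 222 reached the limit, among 8973 annotated genes of any type that did. The study sequenced total RNA with long reads from this muscle of B6CASTF1/J females, the F1 cross of C57BL/6J with CAST/EiJ, at 14 days of age. It has 1 group of 2 libraries, replicates 1 and 2, each made from 2 µg of RNA, and no contrast between conditions. The biosample text of replicate 1 speaks of several females, whereas that of replicate 2 uses the singular, and 1 donor label covers both, so the spread between the libraries may be technical. Since the reads chose the genes, their levels are given as a description with no test.

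Long noncoding RNAs are transcripts without a long reading frame that are often spliced, polyadenylated and held in the nucleus. Some act on chromatin near their own gene, some build nuclear bodies, and some are known mainly as the precursors from which small RNAs are cut. In skeletal muscle, lncRNA genes lie within the myosin heavy chain cluster and the Igf2 and H19 locus, and a few are known to act in the differentiation of muscle cells and in fibre type.

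Replicate 1 held 1248854 reads of annotated genes and replicate 2 held 1106450, so 1 read was worth 0.801 CPM (reads of a gene scaled to a fixed total of annotated-gene reads) in replicate 1 and 0.904 CPM in replicate 2. A gene without a read could have had up to 3 reads, which is 2.40 CPM and 2.71 CPM in these libraries. The transcript models of replicate 1 averaged 2347 bases per read and those of replicate 2 averaged 1545 bases. All 5 muscle fibre markers were read (Ckm, Mylpf, Atp2a1, Acta1, Myh4), with a sum of 292726 CPM in replicate 1 and 215331 CPM in replicate 2. The 5 Schwann cell markers summed to 575 and 2457 CPM in the same order, the 5 fibroblast markers to 8922 and 4331 CPM, the 5 endothelial markers to 369 and 375 CPM, and the 5 blood markers to 1445 and 1265 CPM, with the leukocyte gene Ptprc at 1 and 0 reads. These sums hide opposite moves of single markers. Fabp4, at 118 and 219 CPM, was the only endothelial marker higher in replicate 2, while Pecam1 had 48.8 and 17.2 CPM. Among the muscle fibre markers, Atp2a1 had 115580 and 35810 CPM, whereas Mylpf had 21316 and 35778 CPM. In bulk tissue, fewer cells of a type and less RNA per cell cannot be told apart.

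Several members are hosts of microRNAs, whose mature sequences are shown because they are the known products of these transcripts. The sequences are RefSeq's (GRCm38.p6), written 5′ to 3′ with the seed, bases 2 to 8, in capitals. Mir22hg holds miR-22, and Dleu2 holds miR-15a and miR-16, whose 5p arms share the seed AGCAGCA. 2900076A07Rik holds miR-1839.
miR-22-5p: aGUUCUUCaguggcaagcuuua
miR-22-3p: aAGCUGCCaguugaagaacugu
miR-15a-5p: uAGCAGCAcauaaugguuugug
miR-16-5p: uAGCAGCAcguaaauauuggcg
miR-1839-5p: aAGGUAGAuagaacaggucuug

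RefSeq's promoter table held a window for 132 of the 222 genes, reaching from 250 bases before the RefSeq start to 50 bases after it. Windows of 4 members are shown 5′ to 3′ on the gene's strand, because they differ in the 3 motifs searched on both strands: CAGCTG, an E-box of the kind bound by MyoD family factors, GGGCGG, the GC box of Sp1, and TATAAA, the TATA box. Capitals mark every match, a GC box of the other strand reading CCGCCC. The windows are those of Prr33 (chr7:142506722-142507021, minus strand), Myhas (chr11:67237232-67237531, minus strand), Atcayos (chr10:81194441-81194740, plus strand) and Gas5 (chr1:161034351-161034650, plus strand).
Prr33: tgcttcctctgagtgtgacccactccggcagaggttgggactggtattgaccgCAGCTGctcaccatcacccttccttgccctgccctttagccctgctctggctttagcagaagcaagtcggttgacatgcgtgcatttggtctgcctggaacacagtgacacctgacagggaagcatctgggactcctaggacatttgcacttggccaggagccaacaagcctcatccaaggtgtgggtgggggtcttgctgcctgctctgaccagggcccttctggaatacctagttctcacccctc
Myhas: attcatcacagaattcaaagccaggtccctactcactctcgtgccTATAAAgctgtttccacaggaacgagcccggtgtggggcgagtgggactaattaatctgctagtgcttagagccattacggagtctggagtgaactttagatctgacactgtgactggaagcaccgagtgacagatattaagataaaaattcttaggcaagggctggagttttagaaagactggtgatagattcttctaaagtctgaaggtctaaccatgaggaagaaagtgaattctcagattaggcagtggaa
Atcayos: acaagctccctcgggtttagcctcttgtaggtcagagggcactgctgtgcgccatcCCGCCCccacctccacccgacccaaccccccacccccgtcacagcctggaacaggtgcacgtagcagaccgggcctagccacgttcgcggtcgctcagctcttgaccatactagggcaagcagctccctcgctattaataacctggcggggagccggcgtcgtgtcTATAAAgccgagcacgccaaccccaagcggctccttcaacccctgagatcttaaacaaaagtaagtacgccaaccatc
Gas5: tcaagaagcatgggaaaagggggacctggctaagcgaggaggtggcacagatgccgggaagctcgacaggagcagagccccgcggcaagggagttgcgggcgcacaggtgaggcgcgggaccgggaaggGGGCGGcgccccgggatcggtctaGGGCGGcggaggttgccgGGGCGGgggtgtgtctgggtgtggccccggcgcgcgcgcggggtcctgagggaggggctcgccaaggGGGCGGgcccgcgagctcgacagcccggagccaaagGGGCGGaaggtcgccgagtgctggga

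The Prr33 window held 1 E-box, the Myhas window 1 TATA box, the Atcayos window 1 TATA box and 1 GC box, and the Gas5 window 5 GC boxes. Over the 132 lncRNA windows, the E-box letters were present in 22 (16.7%), against 16.3% of all 32851 windows of the table. The GC box was present in 65 (49.2%), against 35.7% of all windows, and the TATA box in 25 (18.9%), against 13.6%. These are matches of letters and not binding sites. The RefSeq start lay 82 bases from the GENCODE start in Atcayos, 179 bases in Gas5 and 292 bases in Myhas. In Prr33 and many other genes it lay at the same base. In some it lay far away, as in 1600010M07Rik at 144556 bases and AY036118 at 50350 bases. The shares are therefore not those of windows at the GENCODE starts alone. Gm16364 and Gm16365 share a window, which was counted for each. The lncRNA windows were 1 per gene, and the comparison took every window of the table.

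The 222 genes were a small part of the muscle transcriptome. They took 4298 reads in replicate 1, or 0.344% of gene reads, with a Wilson 95% interval of 0.334 to 0.355%. In replicate 2 they took 7009 reads, or 0.633%, with an interval of 0.619 to 0.648%. The mean share was 0.489 ± 0.205% (SD, n = 2). Counting only reads of spliced models, the shares were 0.225% and 0.367% in replicates 1 and 2. Intervals cover counting error only. The set comprised 86 antisense genes, 80 lincRNAs, 42 processed transcripts, 11 bidirectional promoter lncRNAs, 2 sense intronic genes and 1 sense overlapping gene, and no macro_lncRNA gene had a read.

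Reads were concentrated in few genes. The 25 genes with the highest mean level held 57.7% of the lncRNA reads in replicate 1 and 53.9% in replicate 2, and 5 genes held 27.8% and 21.8%. At the other end, 117 genes had fewer than 20 reads in the sum and 38 had 10 or 11, among them Bvht (Braveheart), a lncRNA known from cardiac commitment in mouse, with 4 and 7 reads. Just outside the limit, 48 lncRNA genes had 8 or 9 reads. A total of 214 genes were read in both libraries, and 8 had no read in replicate 1. Of all 8973 genes tested, 21 had no read in replicate 1, as had 9 of 8541 coding genes. No lncRNA gene of the set lacked a read in replicate 2, where 19 of all genes tested and 18 coding genes did. The plot of the leading genes shows both libraries side by side.

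**Figure D1:**
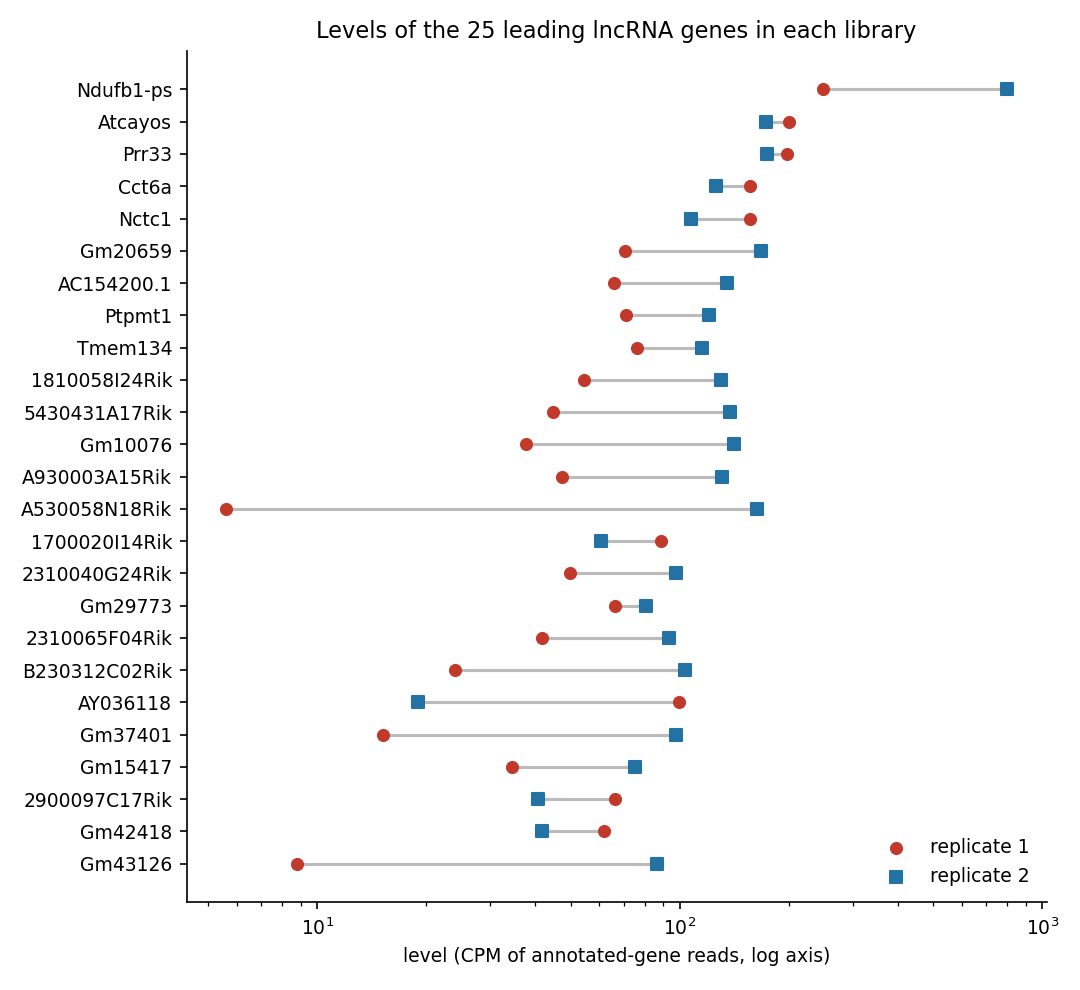
Level in CPM (log axis) of the 25 lncRNA genes with the highest mean, as red circles for replicate 1 and blue squares for replicate 2, joined by a line. Ndufb1-ps stood above all others, at 248 CPM in replicate 1 and 801 CPM in replicate 2, and the libraries lay furthest apart in A530058N18Rik, at 5.61 and 164 CPM.

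The most abundant gene of the set and 6 others were noncoding in GENCODE but are listed as protein-coding genes by RefSeq. These 7 held 784 reads in replicate 1 and 1499 in replicate 2, and 98.2 ± 0.934% of their reads were spliced (SD, n = 2). Ndufb1-ps, matched to Ndufb1, a subunit of respiratory complex I, had 310 and 886 reads in replicates 1 and 2. Its annotated 3-exon form Ndufb1-ps-203 took 250 and 700 of these reads. Cct6a, a subunit of the TRiC chaperonin that folds actin and tubulin, had 195 and 139 reads, of which 175 and 112 followed a single unannotated chain of 13 exons. Ptpmt1, a mitochondrial phosphatase of cardiolipin synthesis, had 89 and 133 reads, and Tmem134, a membrane protein gene, had 95 and 127. 1810058I24Rik, which RefSeq also lists as Stmp1, the gene of a small mitochondrial protein, had 68 and 144 reads, with 62 and 132 in the annotated form 1810058I24Rik-203. The remaining 2 were 2310009A05Rik, RefSeq's Pigbos1, with 18 and 33 reads, and Gm39469, with 9 and 37. RefSeq lists 151 of the 222 genes as lncRNA, and 59 had no RefSeq match by symbol or synonym.

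Ribosomal sequence also reached the set. Gm42418, listed by RefSeq as the 18S ribosomal RNA related sequence Rn18s-rs5, had 77 reads in replicate 1 and 46 in replicate 2. AY036118 lies on its other strand at chr17:39847113-39848035 (mm10) and had 124 and 21 reads, 1 of 3 genes called higher in replicate 1 (log2 ratio 2.07, Fisher's exact test with Benjamini-Hochberg adjustment, adjusted p = 4.17e-15). All of its reads were in single-exon models. Gm10076, a single-exon gene that RefSeq lists as a pseudogene, had 47 and 156 reads.

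Among genes with a link to muscle, Nctc1 and Atcayos led. Nctc1, a noncoding gene of the H19 and Igf2 locus at chr7:142544609-142558596 (mm10, minus strand), had 195 reads in replicate 1 and 119 in replicate 2, or 132 ± 34.3 CPM (mean and SD, n = 2). The annotated 2-exon form Nctc1-201 held 141 and 81 of its 155 and 93 spliced reads. Atcayos lies antisense to Atcay and Nmrk2, a nicotinamide riboside kinase of muscle, at chr10:81194609-81210877 (plus strand), and had 250 and 191 reads, of which 186 and 96 followed the 2-exon form Atcayos-203. Nmrk2 itself had 63 and 59 reads. For these genes the libraries differed by less than a log2 ratio of 1, at 0.25 for Nctc1 and -0.07 for Atcayos.

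A pair of members lies in the fast myosin heavy chain cluster of chromosome 11. Myhas, for which RefSeq gives the synonym lnc-mg, starts 456 bases from the start of Myh4, the gene of myosin IIb, on the other strand, and overlaps Myh1 (chr11:67211256-67237573, minus strand). It had 28 reads in replicate 1 and 37 in replicate 2, while Myh4 had 28804 and 12523. Its annotated form Myhas-203 took 13 and 11 reads, and a 3-exon unannotated chain of known sites took 6 and 6. 2310065F04Rik, RefSeq's linc-Myh, lies 10170 bases from Myh3, the gene of embryonic myosin (chr11:67112461-67120080, minus strand), and had 52 and 103 reads (log2 ratio -1.44, Fisher's exact test, adjusted p = 1.4e-05). With the trend of the ratio on model length over all genes removed, its log2 ratio was 0.12 and it was not called. Its leading chain was a 2-exon piece of an annotated chain, with 16 and 36 reads. Mir133a-1hg, the host of miR-133a-1 and miR-1a-2, microRNAs of muscle, had 15 and 18 reads, all spliced. Both microRNA genes lie in its introns, and its leading chain, with 3 exons and an unannotated site, took 8 and 10 reads. Of 16 names on a list of muscle lncRNAs, matched by annotation symbol, 4 had a read and Myhas alone reached the limit. Mhrt, a cardiac myosin antisense RNA, had 2 and 0 reads. Names without a match may be other names of genes that were read, as lnc-mg is of Myhas.

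The architectural and silencing RNAs were low. Neat1, the scaffold of paraspeckles, had 21 reads in replicate 1 and 85 in replicate 2, and Malat1, a speckle RNA, had 28 and 16. The log2 ratio of Neat1 was -2.45, which was called, and that of Malat1 was 0.33, which was not, and the difference between the pair was not tested. Of Neat1's 106 reads 1 was spliced. Norad (2900097C17Rik), a cytoplasmic RNA that binds Pumilio proteins, had 83 and 45 reads, and Cyrano (1700020I14Rik), the RNA that directs decay of miR-7, had 111 and 67. Xist, which coats the inactive X chromosome, had 12 and 19 reads, all in Genomic models within its own exon. Tsix, its antisense RNA, had 1 and 29 reads, all Genomic too. Jpx, an activator of Xist, had 3 and 11 reads, and Ftx had 0 and 1. Airn, the imprinted RNA that silences Igf2r in mouse, had 4 and 14 reads. Kcnq1ot1 had 0 and 2 reads and Peg13 had 4 and 0, below the limit.

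Among the other abundant lncRNA genes, whose functions are not described here, spliced and unspliced forms stood side by side. 5430431A17Rik (chr7:44473538-44486138, plus strand) had 56 reads in replicate 1 and 152 in replicate 2, with 31 and 80 in its annotated 3-exon form. A930003A15Rik (chr16:19876567-19884274, minus strand) had 59 and 145 reads, with 35 and 89 in an annotated 2-exon form. Both were called higher in replicate 2, at log2 ratios of -1.89 and -1.75, and both calls were lost with the length trend removed, at -0.96 and -0.73. 2310040G24Rik had 62 and 108 reads and Gm44386 had 42 and 62, and these genes lie within the same stretch of chromosome 6. Gm15417, antisense to Zbtb7b, had 43 and 83 reads, nearly all spliced, at 42 and 81. Gm29773, antisense to Nup133, had 83 and 89 reads, all but 1 of them spliced, and a log2 ratio of -0.56 that was not called. B230312C02Rik had 30 and 114 reads, of which 4 and 3 were spliced. In replicate 2, 111 of its reads were in a Genomic model of 1 base, which does not show where they lie. Gm20427, which overlaps H2-Ke6 and Slc39a7 on their strand, had 18 and 52 reads, and reads of a gene and of one that overlaps it on the same strand may be assigned to either. Gm43672, a single-exon gene 510 bases from the start of Tbl1xr1, had 44 and 30 reads.

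Genes that carry small nucleolar RNAs were read as spliced transcripts. Within the 222 genes, 15 hold 31 annotated snoRNA or scaRNA genes, which guide the modification of ribosomal and small nuclear RNA. In these 15 hosts, 92.7 ± 2.11% of reads were spliced (SD, n = 2). Cct6a, coding in RefSeq, is among them and held 195 of their 397 reads in replicate 1 and 139 of 490 in replicate 2. The spliced share without it was not computed. Gas5, the host of 10 annotated snoRNA genes, had 29 reads in replicate 1 and 62 in replicate 2, all spliced, with the 11-exon form Gas5-210 at 20 and 31. Snhg9, antisense to the ribosomal protein gene Rps2, had 23 and 78 reads, all in the annotated 2-exon form. Snhg3, the U17 host, had 11 and 32 reads, Snhg18 had 10 and 37, Snhg8 had 17 and 21, Snhg20 had 11 and 13, Snhg5 had 8 and 17, Zfas1 had 5 and 12, and Snhg6 had 4 and 10. All 9 had more reads in replicate 2. Of 20 listed snoRNA hosts, 16 had a read, 9 reached the limit, and 4 of these (Gas5, Snhg3, Snhg9, Snhg18) were called higher in replicate 2, where 11.4% of all 8973 genes tested were, with none called higher in replicate 1. With the trend of the ratio on model length over all genes removed, Snhg18 alone of these 4 was still called, at a log2 ratio of -1.91, and the ratio was -0.01 for Gas5, -0.16 for Snhg3 and 0.37 for Snhg9.

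MicroRNA hosts were fewer. A total of 8 members hold 10 annotated microRNA genes, 5 of which touch no exon of the host. Mir22hg, whose miR-22 sequences are shown above, had 47 reads in replicate 1 and 37 in replicate 2, and the 3-exon form Mir22hg-202 took 43 and 34 of them. The miR-22 gene touches an exon of this host. Dleu2, the host of miR-15a and miR-16, had 4 and 9 reads. 2900076A07Rik had 0 and 13 reads. Of 17 listed names of microRNA hosts, matched by annotation symbol, 4 had a read and 3 reached the limit.

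The lncRNA genes and coding genes differed in the kind of model their reads followed. Reads of spliced models made up 61.6 ± 5.19% of lncRNA reads, against 92.8 ± 4.73% of the reads of 8541 protein-coding genes with at least 10 reads (SD, n = 2 each). Genomic models are those that overlap a gene without following its splicing, and they held 25.5 ± 7.66% of lncRNA reads, against 4.01 ± 3.01% of coding reads. The Genomic share was 20.1% in replicate 1, with an interval of 18.9 to 21.3%, and 30.9% in replicate 2, with 29.8 to 32.0%, against 1.88% and 6.14% of coding reads. Single-exon models of other classes held 13.0 ± 2.47% of lncRNA reads, against 3.20 ± 1.71% of coding reads. In both libraries the order was the same, and 2 libraries allow no test of it. The lncRNA shares include the 7 genes that RefSeq lists as protein coding. In the other 215, 52.4 ± 7.51% of reads were spliced and 31.7 ± 10.3% were Genomic (SD, n = 2).

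Biotypes differed in this respect. Antisense genes had 28.7% of their reads in Genomic models in replicate 1 and 51.7% in replicate 2. LincRNAs had 23.9% and 29.8%, and processed transcripts 10.9% and 24.3%. Bidirectional promoter lncRNAs had 1.71% and 0.745%, and Ndufb1-ps, with no Genomic read, held 310 of their 409 reads in replicate 1 and 886 of 1074 in replicate 2. LincRNAs had the most single-exon reads among the larger types, at 29.2% and 22.5%, and these include Gm10076, AY036118, Norad, Neat1 and Malat1.

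**Figure D2:**
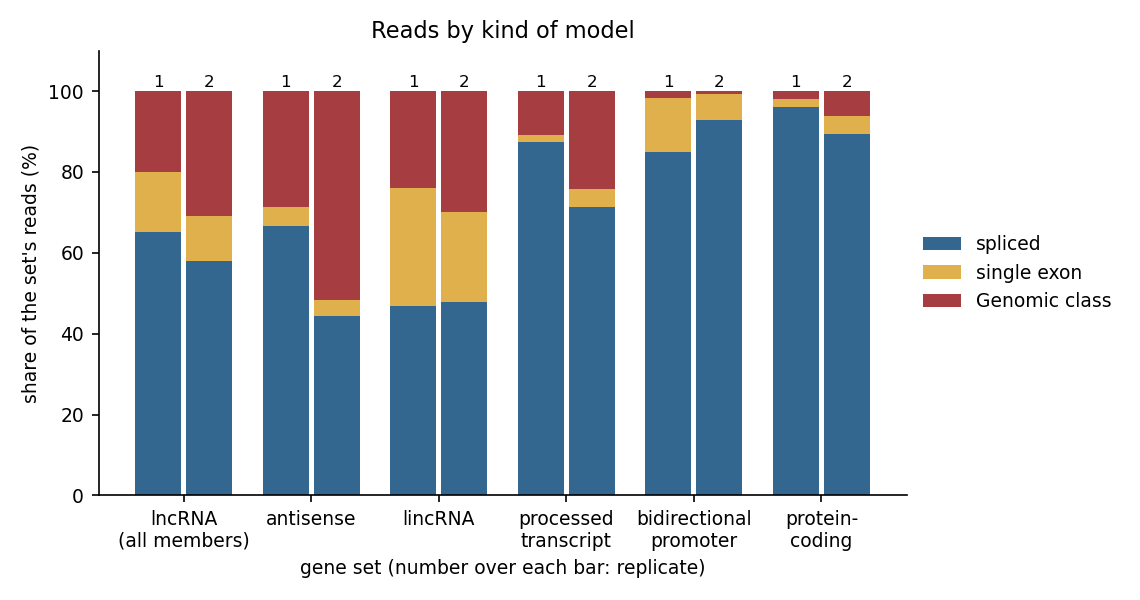
Share of reads (%) in spliced, single-exon and Genomic models for all 222 lncRNA genes, for the 4 larger lncRNA types and for protein-coding genes, with replicate 1 on the left and replicate 2 on the right of each pair of bars. Spliced reads were 65.2% and 57.9% of lncRNA reads in replicates 1 and 2, against 96.1% and 89.4% of coding reads.

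Gene by gene, the Genomic share was split between extremes. It was 100% in 46 lncRNA genes (20.7%), against 35 of 8541 coding genes (0.410%), over 50% in 66 (29.7%), against 5.01% of coding genes, and 0 in 74 (33.3%), against 33.1% of coding genes. The median was 9.09%, against 3.24% in coding genes. Of 121 members that overlap a coding gene on the other strand, 35 were wholly Genomic, and of 89 that overlap none, 8 were.

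**Figure D3:**
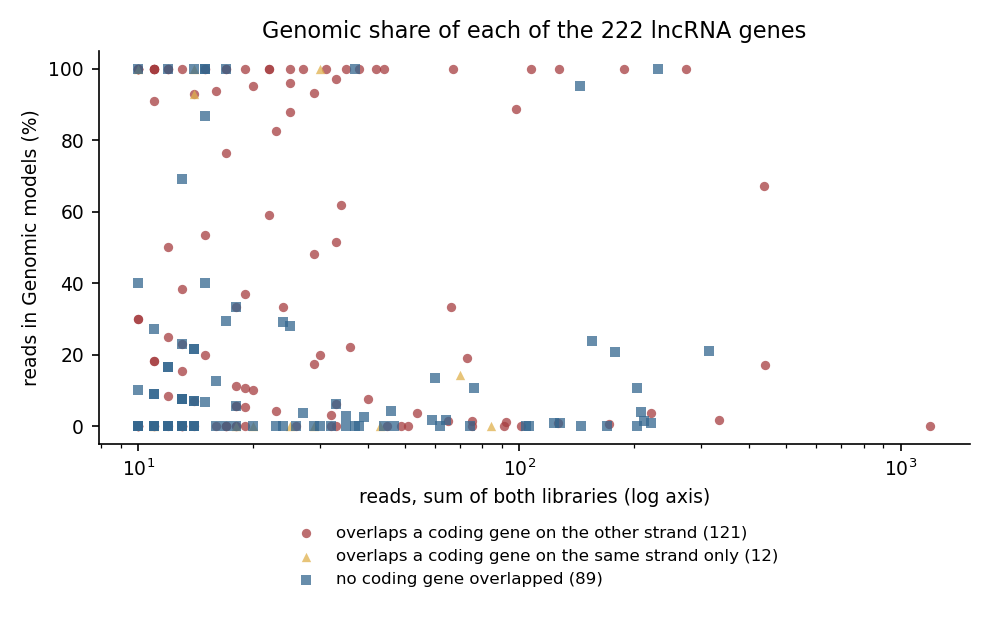
Share of reads in Genomic models (%) against the reads in the sum of both libraries (log axis), 1 point per lncRNA gene, coloured by overlap with a protein-coding gene. Of the 121 genes that overlap a coding gene on the other strand, 51 were over 50% Genomic, against 11 of the 89 that overlap none.

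The abundant lncRNA genes without any spliced read each had a local structure of their own. Gm20659 had 88 reads in replicate 1 and 185 in replicate 2, all in 1 Genomic model of 1302 bases at chr11:101971649-101972950 (mm10, plus strand). The whole model lies on an exon of Dusp3, a phosphatase gene of the other strand, and 211 of its bases lie on an exon of Gm20659. Dusp3 itself had 83 and 95 reads. Gm37401 had 19 and 108 reads, of which 19 and 107 were in a model of 523 bases that lies wholly on an exon of the GTPase gene Rhoa, with 1 base on its own exon. Rhoa had 102 and 88 reads. Gm43126 had 11 and 96 reads in models of 2835 and 3044 bases, wholly on an exon of Ccnd2, the cyclin D2 gene, which had only 4 and 4 reads.

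A530058N18Rik had 7 reads in replicate 1 and 181 in replicate 2. Of the replicate 2 reads, 126 were in a model of 520 bases and 53 in a model of 3938 bases, both on the other strand of Actc1, the gene of cardiac actin, and none of its models touched an exon of A530058N18Rik. Actc1 had 2827 and 1815 reads. C130080G10Rik, which starts 787 bases from the start of Actc1, had 0 and 13 reads. AC154200.1 had 82 and 149 reads in a single Genomic model of 280 bases that touches no exon of its own and lies within 10 bases of the processed pseudogene Oaz1-ps. Lncpint, a p53 target RNA, had 0 and 37 reads, all in a Genomic model of 107 bases beside the pseudogene Gm13835. Prr33 was mixed, with 87 and 57 spliced reads and 159 and 135 Genomic reads. Of its 294 Genomic reads, 66.7% were in models with at least 20 bases on a coding exon of the other strand. That gene was chiefly Tnnt3, the fast troponin T gene. Models on an own exon held 51.4%, and a model can count in both. Tnnt3 exons covered 303 of 4416 bases of the leading model in replicate 1 and 84 of 2254 bases in replicate 2.

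**Figure D4:**
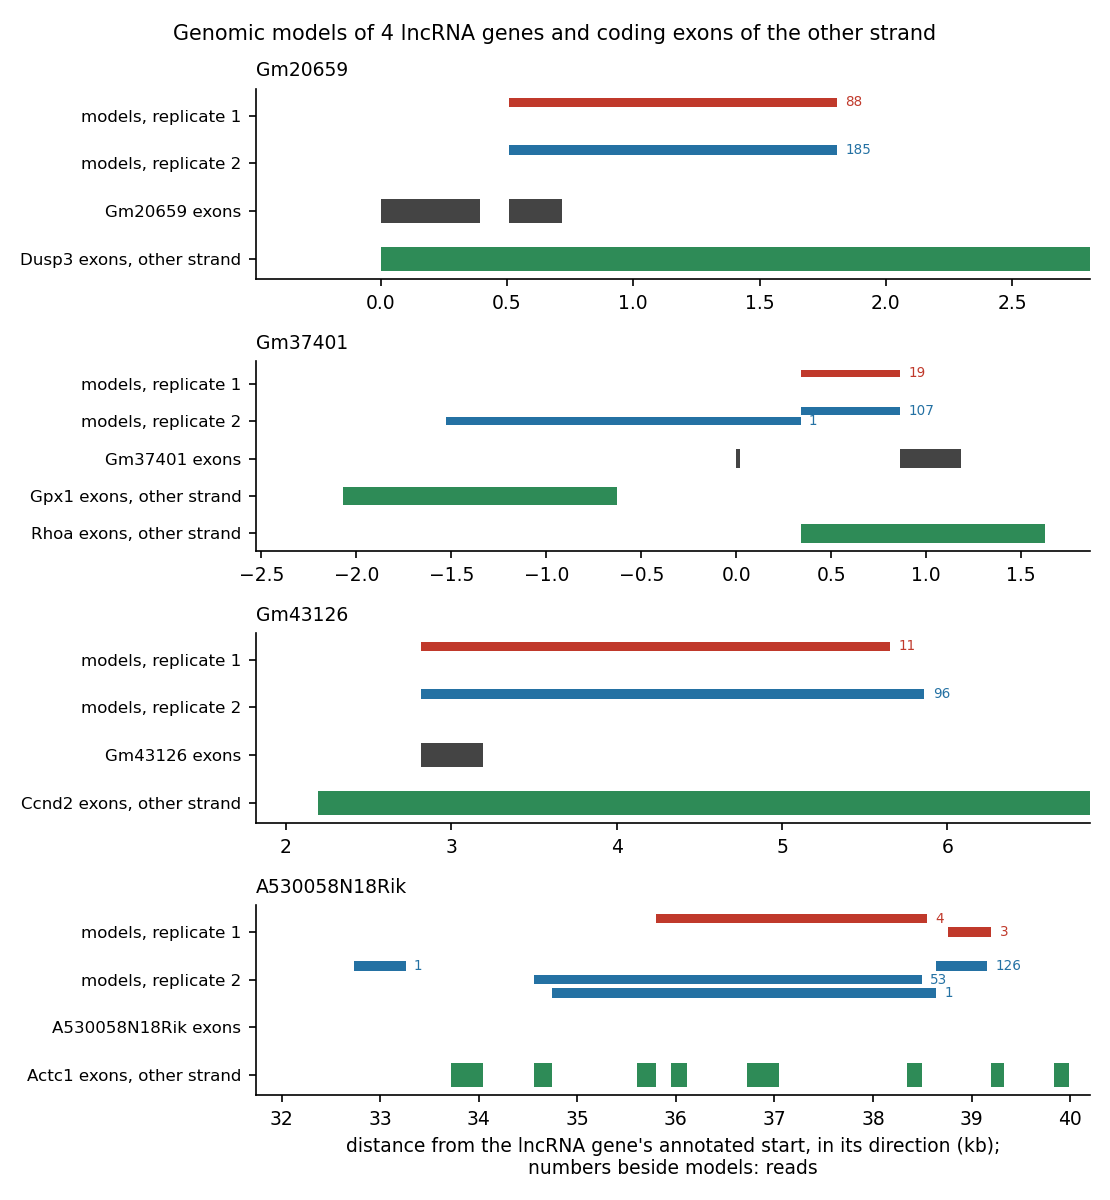
Genomic models of 4 lncRNA genes (red, replicate 1, and blue, replicate 2, with their reads), annotated exons of the lncRNA gene (grey) and exons of coding genes on the other strand (green), as distance from the lncRNA gene's start in its own direction (kb). The models of Gm20659, Gm37401 and Gm43126 with the most reads lie wholly on a coding exon of the other strand, and no exon of A530058N18Rik falls in the drawn window.

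Over all 3027 Genomic reads of the 222 genes, 45.9% were in models with at least 20 bases on a coding exon of the other strand, 43.2% on an own exon, and 27.5% on neither. A further 9.28% were in models under 20 bases long, whose bounds do not show where the reads lie. The coding-exon and own-exon shares overlap, with 25.8% of the reads in models on both. Among the 46 wholly Genomic genes, 16 had most reads on a coding exon of the other strand and 17 on an own exon. These groups overlap, and Gm20659 and Gm43126 are in both. A further 3 genes had most reads beside a processed pseudogene, and 22 of the 46 had no model on an own exon. Where an annotated exon holds the 20 bases after a model's end, they could be read, in 137 models with 1277 reads. In 47 of these models (34.3%), with 622 reads, at least 12 of the 20 bases were adenines, against 1.28% of all 20-base windows of annotated transcripts on both strands. Gm20659 accounted for 273 of these reads, with adenines at all 20 bases, and without it 34.8% of 1004 reads were in models that end before such a run. A model found in both libraries, as that of Gm20659, was counted once for each. The background windows lie anywhere in transcripts, and no ends of spliced models or of coding genes' Genomic models were compared. Whether such runs are particular to these models was not tested. Model ends are not read ends, since bounds of Genomic models follow annotated sites in part. In Gm43126 the counts were 15 adenines of 20 in replicate 1 and 19 in replicate 2, whereas in Gm37401 they were 5 in both. Adenine runs in the template can prime cDNA synthesis in protocols that use oligo-dT, and their part in these reads was not tested.

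Where lncRNA reads were spliced, their chains were short. Spliced lncRNA reads had 3.70 exons on average in replicate 1 and 3.29 in replicate 2, against 11.8 and 7.87 exons per spliced read of coding genes. The lncRNA averages include Cct6a, coding in RefSeq, with 175 and 112 reads of a 13-exon chain. Reads of 2 exons were 42.2% and 41.1% of spliced lncRNA reads, against 3.02% and 5.25% of coding reads. A spliced read was found for 155 of the 222 genes, and 111 had at least 10. Together they showed 831 different intron chains, of which 294 were found in both libraries. The leading chain was an annotated one in 91 genes, part of one in 13, and unannotated in 51. In 41 of 55 genes with at least 20 spliced reads, a single chain took 50% or more of them.

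Unannotated chains were common and partly shared. Of 553, 128 were found in both libraries, in 65 genes. Cct6a led through its 13-exon chain. Lppos, which starts 81 bases from Lpp on the other strand, had 25 and 43 reads in 2 such chains, and its leading 2-exon chain took 22 and 28. Gm29773 had 14 shared unannotated chains with 33 and 24 reads, and its leading annotated form took only 14.0% of its spliced reads. 2310040G24Rik had 22 and 33 reads in 5 such chains, and Gm11716, antisense to Pitpnc1, had 15 and 32 in 4. In contrast, Gm44386 had 41 and 59 of its 42 and 61 spliced reads in 1 annotated 2-exon form.

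Most lncRNA genes lay by a coding gene. A total of 121 overlap a coding gene on the other strand, 19 on the same strand and 89 neither. The start of 72 lies within 1 kb of a coding gene's start on the other strand, at a median of 182.5 bases, and in 36 of these pairs the coding partner had more reads. The coding gene had more reads beside 0610009L18Rik: 136 bases from Actg1, it had 18 and 58 reads, against 279 and 155 for Actg1. In other pairs the member of the set had more reads. Cct6a, a coding gene in RefSeq, had 195 and 139, against 23 and 33 for Psph at 451 bases. Gas5 had 29 and 62, against 1 and 0 for Zbtb37 at 427 bases. Snhg18 had 10 and 37 reads, against 3 and 2 for Sema5a at 148 bases. The 72 genes together had 20.8% Genomic reads in replicate 1 and 36.8% in replicate 2.

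Between the libraries, most lncRNA genes had the higher level in replicate 2. Every annotated gene with at least 10 reads was tested by a two-sided Fisher's exact test of its reads against those of all other genes, with Benjamini-Hochberg adjustment over all of them. Genes were called when the adjusted p was under 0.05 and the log2 ratio of TMM-scaled CPM, replicate 1 over replicate 2, was at least 1 in size. The p-value speaks of the reads sampled here and takes in no variation between animals. Of the 222 lncRNA genes, 70 (31.5%) were called higher in replicate 2, against 11.4% of all 8973 genes tested, and 3 (1.35%) were called higher in replicate 1, against 8.83% of all genes. The median log2 ratio was -1.29, against -0.01 over all genes, and was negative in 188 of the 222. When edgeR's exact test was given the spread between the libraries as a common dispersion (biological coefficient of variation 0.427), 1 lncRNA gene (0.45%) was called higher in replicate 2, A530058N18Rik, against 0.078% of all 8973 genes, and none was called higher in replicate 1, where 0% of all genes were.

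In spliced reads the calls leaned the same way until the length trend was removed. Of 111 lncRNA genes with at least 10 spliced reads, 28 (25.2%) were called higher in replicate 2, against 10.1% of 7850 genes, and 1, AI506816 (0.901%), was called higher in replicate 1, against 9.43%. With the trend of the ratio on model length removed, 5 (4.5%) were called higher in replicate 2, against 3.9% of all genes, and 2 (1.8%) in replicate 1, against 2.5%, shares near those of all genes. The length used here was that over all reads of a gene, Genomic reads included. In all reads, genes with over 50% Genomic reads had a median log2 ratio of -2.09 and the others -1.08.

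Length moved with these ratios. The models of lncRNA genes had a median length of 893 bases, against 2327 bases for coding genes, and over all genes the ratio was higher where models were longer. With this trend removed by a lowess curve over all tested genes, the median log2 ratio of the lncRNA genes was -0.25, and 23 (10.4%) were called higher in replicate 2, against 4.25% of all genes, and 4 (1.8%) in replicate 1, against 2.4%. Of the 73 calls made on all reads, 23 were made again with the trend removed, and 9 genes then had a log2 ratio of the other sign. Genomic models of very few bases give a length that does not measure a transcript. Such models held 111 reads of B230312C02Rik (1 base), 13 of Gm29253 (7 bases) and 10 of Gm48742 (23 bases). For genes with over 50% Genomic reads the median after removal was -0.68, and for the others -0.06. A gene's length was a mean over its reads of both libraries, and the models of replicate 2 were shorter per read. More reads in replicate 2 can thus shorten a gene's length, so length and ratio are not independent. A call lost with the trend removed therefore cannot be assigned to length alone. The Schwann cell marker sum, given above, also differed between the libraries, and its part in these calls was not tested.

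**Figure D5:**
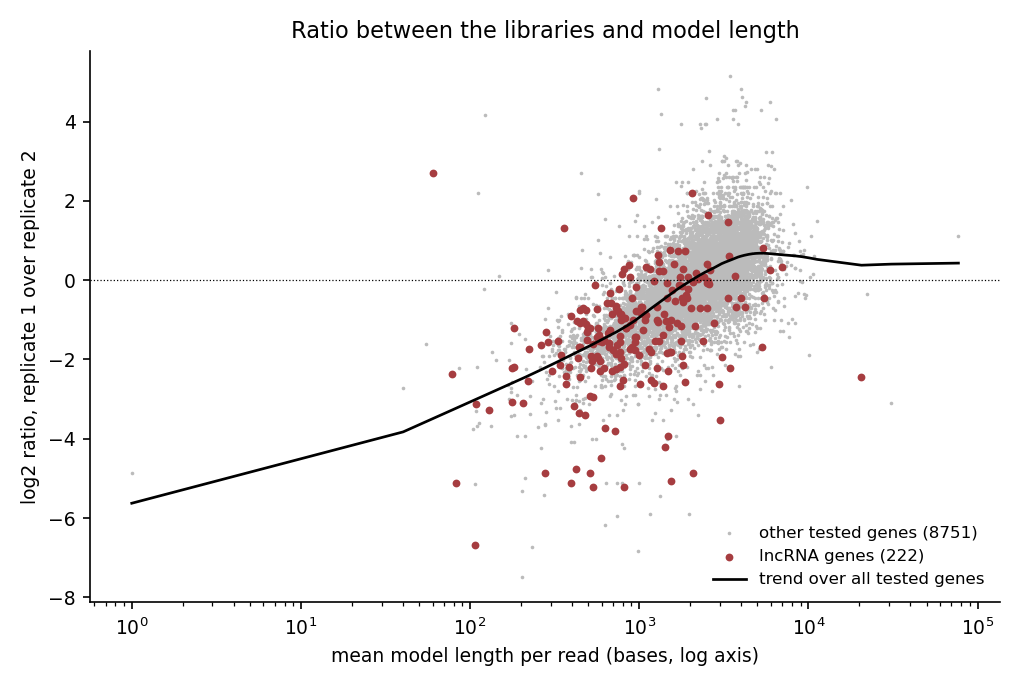
Log2 ratio of replicate 1 over replicate 2 against the mean model length per read (bases, log axis), for the lncRNA genes (red) and all other tested genes (grey), with the trend over all tested genes (black line). The lncRNA genes sit at a median of 893 bases, where the trend lies below 0.

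Named calls ran through several roles. Higher in replicate 2 were Ndufb1-ps (log2 ratio -1.97, Fisher's exact test with Benjamini-Hochberg adjustment, adjusted p = 7.74e-79), Neat1 (adjusted p = 4.98e-11), Gm20659, Gm37401 and Gm43126, and the largest fitted change with reads in both libraries was that of A530058N18Rik at -5.06 (adjusted p = 6.54e-48). With the length trend removed, the calls of Neat1, Gm37401, Gm43126 and A530058N18Rik were kept and those of Ndufb1-ps, at -0.74, and Gm20659, at -0.96, were lost. Tsix followed A530058N18Rik with 1 read in replicate 1 and 29 in replicate 2. The genes called without a read in replicate 1 included Lncpint, with 37 reads in replicate 2, 2900076A07Rik and C130080G10Rik with 13 each, Gm26835 and Gm48742 with 12, and 2810403D21Rik, D730045B01Rik and 4930512H18Rik with 10. Of these 8, Lncpint, C130080G10Rik and 4930512H18Rik were still called with the length trend removed. No fold is given for them, since a count of 0 allows up to 2.40 CPM. These 8 genes reached the limit of 10 reads through replicate 2 alone, so their choice and their call rest on the same reads. Higher in replicate 1 were AY036118, given above, AI506816 with 49 and 11 reads (log2 ratio 1.65), and Gm29253 with 13 and 1. On the nuclear, X-linked and imprinted lists, 1 of 2, 1 of 3 and 1 of 1 tested genes were called higher in replicate 2. They were Neat1, Tsix and Airn, and 11.4% of all 8973 genes tested were called in that direction. The call of Airn was lost with the length trend removed.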

How the data were processed

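The authors' deposited files hold, per the file headers, raw read counts of each transcript model and, in bases, the exons and length of the models. Reads were assigned to models with TALON, and the build is mm10 with GENCODE M21, per the notes beside the files and the files' attributes. The aligner, the versions and the platform were not given in the sources used here. Models were grouped as spliced (at least 2 exons, not class Genomic), single-exon (other classes) or Genomic. Gene reads are sums over models of annotated genes, without spike-ins and unannotated loci. Bounds of Genomic models follow annotated sites in part, so they are model bounds and not read ends. Gene coordinates, overlaps and flanking bases come from GENCODE M21 of the same build, counted from 1. RefSeq names and sequences are those of GRCm38.p6, matched by symbol or synonym.

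Calls used Fisher's exact test (scipy 1.17.1), Benjamini-Hochberg adjustment over all genes with at least 10 reads, TMM factors (edgeR 4.0.16) and a prior count of 0.5. The length trend was a lowess curve with a span of 0.3 and 3 robust iterations (statsmodels 0.14.6), with a two-sided exact binomial test around it. Lengths were means over all reads of a gene in both libraries, also where spliced reads alone were tested. DESeq2 1.42.0 gave alternative size factors. Scripts were tested on simulated data. By the rule for named genes these are the 25 highest, the listed lncRNAs, the largest calls in each direction, the most spliced and most Genomic members with at least 100 reads, and the leaders in shared unannotated chains and head-to-head pairs. Genes with a coding RefSeq match that the rule does not name, and listed genes below 10 reads, were named after their values were seen. The members and lists were chosen with earlier results of these data known.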

Additional observations from a re-analysis of the deposited data

How the results depend on the processing

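No paired analysis was possible because the study has 1 group. The count of lncRNA genes called higher in replicate 2, 70 as reported, was 28 of 111 tested in spliced models only (10.1% of all genes), 37 of 149 with Genomic models left out (11.5% of all genes), 23 of 222 with the length trend removed (4.25% of all genes) and 1 of 222 with edgeR's exact test and a common dispersion (0.078% of all genes). Calls higher in replicate 1, 3 as reported, numbered 1 in spliced models only (9.43% of all genes). They numbered 6 with no limit on the log2 ratio (18.8% of all genes). With edgeR's exact test there were 0, and no gene of any type was called in that direction. Within spliced models, removing the length trend gave 2 and 5 calls of 111 higher in replicates 1 and 2, where 2.5% and 3.9% of all genes were called, against 1 and 28 before removal. Other scalings (total, DESeq2) and no low-count filter kept both counts within 1.5 times. Calls higher in replicate 2 were then 30.2%, 31.5% and 27%, against 9.03%, 11.5% and 6.1% of all genes. Those higher in replicate 1 were 1.35% each time, against 12.4%, 8.59% and 4.27%. At a limit of 20 reads, 48 of 105 (45.7%) were called higher in replicate 2, against 14% of all genes. In replicate 1, 2 (1.9%) were higher, against 10.1%. The median log2 ratio was -0.25 with the length trend removed, against -1.29. Under 3 other settings (scaling by the total, DESeq2 size factors, spliced models only) the median stayed negative and lower than with the trend removed. No spread between the libraries was measured for this median, so the size of these shifts was not judged. TMM scaling shifted all log2 ratios by -0.29 relative to scaling by the total.

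The number of lncRNA genes follows the limit: 421 at 5 reads, 105 at 20 reads, 111 at 10 spliced reads, and from 88 to 146 when 10 reads were asked of a single library. The Genomic share of lncRNA reads ran from 20.1 to 30.9% and the share of all gene reads from 0.344 to 0.633% with either library left out. For the 37 named genes that were called, 289 values under other settings kept the call in 223 cases and lost it in 60 with the direction kept. The direction changed in 6 cases, each after removal of the length trend, with log2 ratios of 0.88 for AC154200.1, 0.13 for 2310040G24Rik, 0.12 for 2310065F04Rik, 0.90 for B230312C02Rik, 0.37 for Snhg9 and 0.80 for Gm44386. The value of B230312C02Rik rests on a length set largely by its model of 1 base. The cause of these changes was not tested. The 223 kept calls are not independent checks. Dropping the limit on the log2 ratio cannot lose a call, and the scalings and read limits reuse the same Fisher's exact test. With edgeR's exact test and a common dispersion, A530058N18Rik alone of the named genes kept its call. With 2 libraries and 117 genes under 20 reads, depth limits most single-gene ratios.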

Other observations

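Antisense and intergenic RNAs of the Hox clusters, which hold the patterning genes of the body axis and limb, were read in this limb muscle at low levels. These genes were chosen after their values were seen. Hoxd3os1 had 23 reads in replicate 1 and 50 in replicate 2, with 14 of its reads in Genomic models and the rest spliced. Hotair had 3 and 3 reads, Hotairm1 had 1 and 3, Hoxa11os had 0 and 6 and Hoxaas3 had 0 and 2, all below the limit of 10 in the sum.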
